A study of Neurospora crassa with 84 samples.

Results

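The subject here is the mRNA of 7 histone genes of the filamentous fungus Neurospora crassa, in a strain without the regulatory gene ve-1 set against the wild type. The 7 genes were taken by their identifiers in the table of counts, out of 10590 genes, whatever their values. They are the genes for the nucleosome core histones, hH3 (NCU01635, histone H3), hH4-1 (NCU01634) and hH4-2 (NCU00212, both histone H4), hH2A (NCU02437, histone H2A) and hH2B (NCU02435, histone H2B), the gene for the linker histone, hH1 (NCU06863), and the gene for the histone variant H2A.Z, hH2Az (NCU05347). All 7 passed the filter on low counts, which left 9701 genes in the tests.

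VE-1 belongs to the velvet family of fungal regulators, which tie the choice between asexual and sexual development to light. The study asked how its loss changes the transcriptome while the female organs (protoperithecia) form and, once fertilized, turn into fruiting bodies (perithecia). RNA came from cultures of 2 mat A strains, ∆ve-1 (a single strain in which the ve-1 gene is deleted) and the wild type (OR74A), grown on a nitrogen-poor crossing medium at 22 °C, either under constant light or in the dark. Surface tissue was scraped off on days -2, -1 and 0 before fertilization and on days 1, 2, 4 and 6 after conidia of a wild-type strain of mat a had been applied, so every later sample of either strain also held wild-type male cells and, potentially, their nuclei in the fruiting bodies. There were 28 groups, one for each strain, condition and day, with 3 libraries apiece and 84 in all. Tissue of biological replicates had been pooled for RNA extraction, so each SD, SE and p-value below measures the spread between these libraries, which may be technical in part.

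Histones H2A, H2B, H3 and H4 assemble into the octamer that DNA winds around in a nucleosome. The linker histone H1 binds where DNA enters and leaves that particle. In eukaryotes, most core histone mRNA is made while DNA is being replicated, because each new chromosome needs a new set of nucleosomes. The variant H2A.Z can take the place of H2A and is made through the whole cell cycle.

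A library totalled 14.5 to 18.4 M counts (M, 1e6), the median being 16.5 M. Counts of ve-1, the check of the strain labels, were 101 to 281 in ∆ve-1 libraries, against 2272 to 11859 in wild-type libraries. The sources used here do not say which stretch of ve-1 the deletion removed. Correlations of log2 values across genes between libraries of 1 group ranged from 0.940 to 0.993. Of all libraries, replicate 3 of ∆ve-1 in the dark on day -2 and replicate 1 on day -1 had the lowest mean correlation with their own group, 0.948 and 0.952, and for several results of those days values without them are given. Markers were also read out for conidia, the asexual spores (5 genes, con-6, con-8, con-10, eas and fl), and for perithecia and meiosis (4 genes, per-1, asd-1, app and spo11), of which none was at 0 in any library.

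The histone genes lie in few places in the genome (assembly NC12, RefSeq annotation, gene spans from start to end). hH3 (chromosome II, 2874241 to 2875647) and hH4-1 (chromosome II, 2877350 to 2878740) are neighbours, 1702 bp apart with no annotated gene between them. hH2A (chromosome VII, 2487192 to 2488439) and hH2B (chromosome VII, 2490608 to 2492335) are 2168 bp apart, with NCU14153, a non-coding RNA gene, and NCU02436, a coding gene, between them. The second gene for H4, hH4-2 (chromosome III, 3024058 to 3025897), stands away from both pairs, as do hH1 (chromosome VII, 546038 to 548166) and hH2Az (chromosome II, 1387651 to 1392823). The genes hH4-1 and hH4-2 encode the same kind of histone, and it is not stated how reads in stretches shared by both were counted, which leaves the split of H4 reads between them uncertain.

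All 7 genes were strongly expressed, and they differed in how far their mRNA moved. Together they took between 0.383% ± 0.0378 of a library's counts in ∆ve-1 in light on day 6 and 1.39% ± 0.199 in wild-type light cultures on day 1 (SD, n = 3 each). Levels below are in CPM, counts per 1e6 after TMM scaling of library totals. They are set side by side for 1 gene at a time, because counts are not corrected for gene length. Over the 28 groups, the highest mean CPM was 7.38 times the lowest for hH2A, 6.08 times for hH2B and 5.43 times for hH1. The same ratio was 2.63 for hH4-2, 2.56 for hH4-1 and 2.19 for hH3, and it was smallest, 1.42, for hH2Az. The median coefficient of variation between the 3 libraries of a group was 16.2% for hH2A and 5.12% for hH2Az, with the other members between these.

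Over the 28 group means of log2 CPM, Pearson's r was 0.991 between hH2A and hH2B and 0.935 between hH3 and hH4-1, the 2 pairs that lie close together. It was also high between genes far apart, at 0.950 for hH4-1 and hH2A and 0.914 for hH2B and hH1, and lowest, at 0.353, between hH1 and hH2Az. The 2 genes for H4 had an r of 0.821. These values describe the 28 groups, which share strains, libraries and their scaling.

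In the order of the 28 group means, the wild type in light on day 1 held the highest value of 6 of the 7 genes, with 3473 ± 399 CPM for hH3, 1456 ± 116 for hH4-1, 1649 ± 198 for hH4-2, 2027 ± 372 for hH2A, 2616 ± 385 for hH2B and 288 ± 9.30 for hH2Az (SD, n = 3). For each of these 6 the wild type in the dark on day 1 came next. hH1 was highest in wild-type light cultures on day -2, at 1662 ± 159 CPM, followed by the same strain in light on day 1, at 1638 ± 104 CPM. At the low end stood day 6 in light. It gave the lowest mean of hH1, hH4-1 and hH4-2 in ∆ve-1, with 306 ± 57.5, 569 ± 23.5 and 626 ± 35.6 CPM, and the lowest of hH3, hH2A and hH2B in the wild type, with 1587 ± 102, 275 ± 50.7 and 431 ± 48.9 CPM. hH2Az was lowest in wild-type light cultures on day 4, at 203 ± 4.09 CPM. Neighbours in these orders mostly did not differ beyond their spread. Of the 27 neighbouring pairs of groups, between 25 (hH4-1 and hH2B) and 27 (hH1) overlapped in their libraries.

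Taken by strain and condition, the group means of hH1 lay between 306 and 554 CPM in ∆ve-1 in light, against 479.7 and 1662 CPM in the wild type in light, and between 618 and 1146 CPM in ∆ve-1 in the dark (without the libraries that stood apart, 629 and 1146 CPM), against 631 and 1513 CPM in the wild type in the dark. For hH2A the means were between 290.2 and 738 CPM in ∆ve-1 in light, against 275 and 2027 CPM in the wild type in light, and between 524 and 1112 CPM in ∆ve-1 in the dark, against 426 and 1983 CPM in the wild type in the dark. For both genes, ∆ve-1 spanned a narrower range over the 7 days, under both conditions. hH3 showed the same with means of 1864 to 2291 CPM in ∆ve-1 in light, against 1587 to 3473 CPM in the wild type in light. No test was made of these spans.

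**Figure D1:**
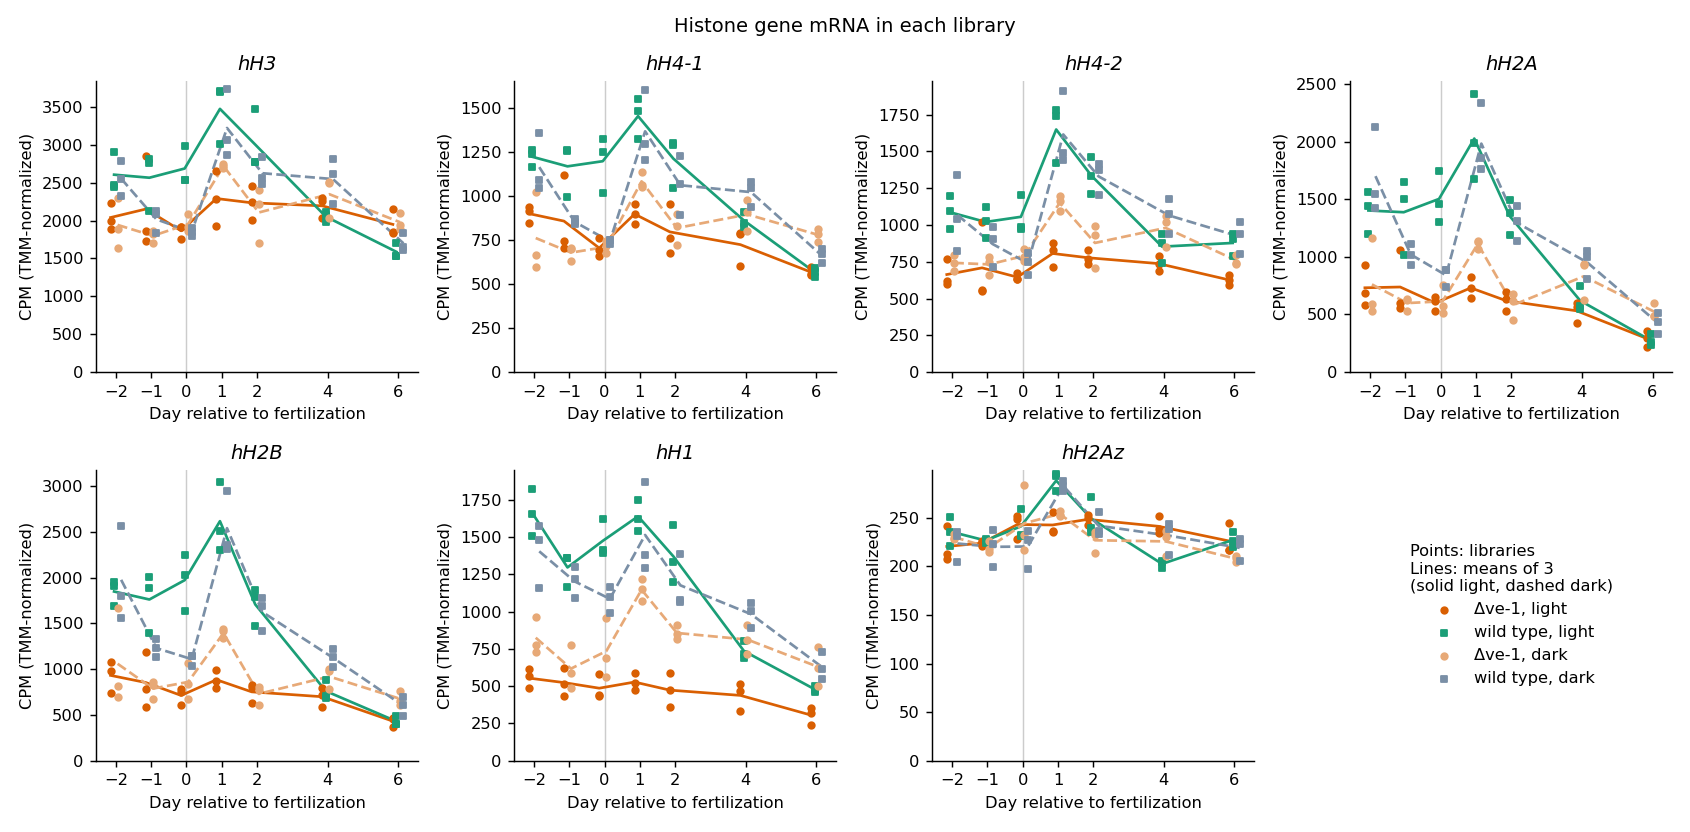
Level of each of the 7 histone genes in every library, in CPM after TMM scaling, against the day relative to fertilization; points are libraries, lines are means of 3, solid in light and dashed in the dark. In wild-type light on day 1, hH1 was between 1543 and 1749 CPM in the 3 libraries, while the ∆ve-1 light libraries were between 474 and 587 CPM.

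The linker histone gene hH1 gave less mRNA in ∆ve-1 on every day in light, compared with the wild type. On day 1 in light it had 587, 474 and 521 CPM in the ∆ve-1 libraries, against 1749, 1623 and 1543 CPM in wild-type libraries. Before fertilization, on day -2, the ∆ve-1 libraries held 565, 613 and 485 CPM and the wild-type libraries 1654, 1824 and 1506 CPM. On both days every ∆ve-1 library was lower than every wild-type library, by a wide margin. By day 6 the distance had narrowed to 319.7, 243 and 356 CPM in ∆ve-1 libraries, against 503, 473 and 463 CPM in the wild type, still without overlap. The log2 fold change of ∆ve-1 over the wild type (edgeR quasi-likelihood test, Benjamini-Hochberg adjusted over all tested genes) was -1.58 ± 0.18 (SE, adjusted p = 4.19e-10) on day -2, -1.31 on day -1, -1.60 on day 0, -1.63 ± 0.19 (SE, adjusted p = 4.94e-11) on day 1 and -1.53 on day 2. These 5 days passed both an adjusted p of 0.05 and an absolute log2 fold change of 1, which is what "called" means below for a single day. Each of the 5 calls passed the adjusted p whichever replicate number was left out. Such a fit has fewer libraries per group, so a pass can be lost with little change in the estimate. On day 4 and day 6 the changes, -0.75 ± 0.18 and -0.65 ± 0.18 (SE), were smaller than that fold and passed on the adjusted p alone (0.000339 and 0.00149), that of day 6 not without replicate 2. In scraped tissue of this kind, fewer cells that make histone mRNA and less of it per cell cannot be told apart.

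The paired genes hH2A and hH2B also fell in ∆ve-1 in light, but only over part of the time course. On day 1 in light, hH2A had 826, 639 and 728 CPM in ∆ve-1 libraries, against 2416, 1989 and 1676 CPM in wild-type libraries. For hH2B the values were 995, 791 and 869.9 CPM in ∆ve-1 and 3044, 2508 and 2297 CPM in the wild type. Both genes were lower in all 3 mutant libraries than in any wild-type library. Their log2 fold changes that day were -1.47 ± 0.23 (SE, adjusted p = 2.81e-07) for hH2A and -1.56 ± 0.22 (SE, adjusted p = 1.41e-08) for hH2B, edgeR. hH2A was called on days 0, 1 and 2 and hH2B on days -1, 0, 1 and 2. On day -1 hH2B was at -0.86 without replicate 1 and at -0.91 without replicate 3, and on day 2 hH2A was at -0.95 without replicate 2. On day 6 the strains had come together, with 356, 219 and 296 CPM of hH2A in ∆ve-1 against 332, 258 and 234 CPM in the wild type, which overlapped, and a log2 fold change of 0.079 ± 0.23 (SE).

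The genes for H3 and H4 changed less. On day 1 in light, hH3 had 2655, 1928 and 2289 CPM in ∆ve-1 libraries, against 3694, 3714 and 3012 CPM in wild-type libraries, a log2 fold change of -0.60 ± 0.15 (SE, adjusted p = 0.000349). Its neighbour hH4-1 had 954, 843 and 900.3 CPM in ∆ve-1 and 1555, 1486 and 1328 CPM in the wild type, a log2 fold change of -0.70 ± 0.15 (SE, adjusted p = 5.13e-05). The other H4 gene, hH4-2, had 876, 713 and 829 CPM in ∆ve-1 and 1783, 1741 and 1422 CPM in the wild type. Its log2 fold change of -1.03 ± 0.16 (SE, adjusted p = 1.96e-07) made day 1 the only day on which a gene for H3 or H4 was called in light. On days -2, 0, 1 and 2, all 3 of these genes were lower at an adjusted p under 0.05 (edgeR), and on day -1 both H4 genes were while hH3 was not (-0.25 ± 0.15 SE, adjusted p = 0.141). Leaving out replicates ended several of these passes. hH3 on day -2 did not pass whichever replicate number was left out (adjusted p of 0.113, 0.167 and 0.214, edgeR), on day 0 not without replicate 1, on day 1 not without replicate 2 and on day 2 not without replicate 2 or 3. hH4-1 on day -2 did not pass without replicate 2 or 3, and on day 2 not without replicate 2. On day -1 both H4 genes were at -0.28 without replicate 1 (adjusted p of 0.275 for hH4-1 and 0.306 for hH4-2, edgeR) and did not pass without replicate 3 either, while hH4-2 on days -2, 0, 1 and 2 passed each time, with day 1 at -0.91 without replicate 2. On day 6 only hH4-2 still passed of these genes, at -0.49 ± 0.16 (SE, adjusted p = 0.00621), though not without replicate 1, while hH3 had turned to 0.30 ± 0.15 (SE, adjusted p = 0.0671).

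H2A.Z mRNA stayed within a narrow range. On day 0 in light hH2Az had 252, 249 and 228 CPM in ∆ve-1 libraries, against 259, 231 and 233 CPM in wild-type libraries, which overlapped. It was lower in ∆ve-1 on day 1 (-0.25 ± 0.08 SE, adjusted p = 0.00586) and higher on day 4 (0.25 ± 0.08 SE, adjusted p = 0.00524), both far below the fold required for a call and each past the adjusted p in 1 of the 3 fits that left out a replicate number. On the other 5 days in light its change had an adjusted p of 0.32 or more (edgeR).

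Counted over the 7 genes and 7 days in light, 13 of 49 tests were called, all lower in ∆ve-1. Over all 9701 genes and the same 7 days 28.5% of tests were called, 16% in the lower direction, so the number of histone calls was near the background, and all of them pointed down. At an adjusted p of 0.05 alone, 33 of the 49 histone tests were lower and 1 was higher, where 30% of all tests were lower and 28.7% higher. Of these 34 tests, 21 passed whichever replicate number was left out. The median log2 fold change of the 7 genes lay between -1.03 on day 1 and -0.00035 on day 6, whereas the median over all tested genes was within 0.05 of 0 on each day. In the same libraries the 5 conidial markers summed to between 64653 and 97885 CPM in ∆ve-1 on days 1 and 2 in light, against 7650 to 23459 CPM in the wild type, and the 4 perithecial markers summed to between 200 and 335 CPM in ∆ve-1, against 3996 to 12902 CPM in the wild type. The perithecial sum was carried by per-1 (137 to 254 CPM in ∆ve-1, against 3063 to 4009.7 CPM in the wild type) and app (4.47 to 89.0 CPM in ∆ve-1, against 101 to 9333 CPM in the wild type). Another perithecial marker, asd-1, went the other way, with 35.3 to 56.1 CPM in ∆ve-1, against 10.3 to 18.7 CPM in the wild type, and 1 or 2 of the 4 were higher in ∆ve-1 on each day in light. Of the conidial markers, 5 of 5 were higher in ∆ve-1 from day 1 to day 6 in light and 4 of 5 from day -2 to day 0. The part of this difference in tissue in the histone values was not tested.

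**Figure D2:**
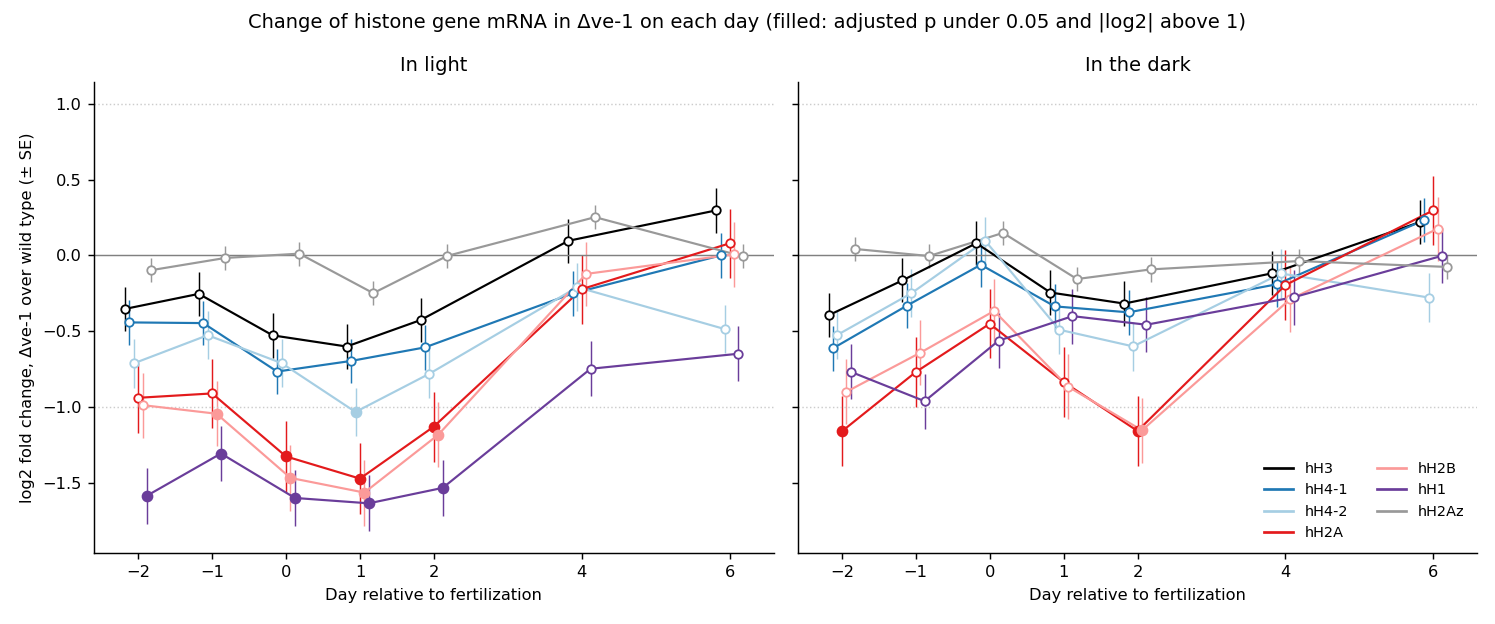
Log2 fold change of ∆ve-1 over the wild type for each histone gene on each day, in light and in the dark, with SE bars; filled points passed an adjusted p of 0.05 and an absolute log2 change of 1. In light hH1 lay lowest, at -1.63 to -1.31 from day -2 to day 2, and hH2Az stayed between -0.25 and 0.25.

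In the dark too, hH2A, hH2B, hH1 and the H4 genes were lower in ∆ve-1 on some of the days. hH3 was lower on day -2 only, at -0.39 (adjusted p = 0.0225, edgeR), and did not pass without replicate 1 or 2. On day 2, hH2A had 618, 676 and 452 CPM in ∆ve-1 libraries, against 1141, 1439.7 and 1312 CPM in wild-type libraries. hH2B had 772, 808 and 613 CPM in ∆ve-1 and 1416, 1773 and 1685 CPM in the wild type on that day. Neither gene overlapped between the strains, and both were called, with log2 fold changes of -1.16 ± 0.23 (SE, adjusted p = 3.48e-05) and -1.15 ± 0.21 (SE, adjusted p = 1.12e-05), edgeR. The linker gene hH1 had 489, 591 and 773 CPM in ∆ve-1 on day -1, against 1299.6, 1089 and 1218 CPM in the wild type, a log2 fold change of -0.96 ± 0.18 (SE, adjusted p = 1.94e-05) that was -0.82 (adjusted p = 0.0010, edgeR) without replicate 1 of the mutant. No member passed the adjusted p on days 4 and 6 in the dark, where all 7 changes lay between -0.29 and 0.30.

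The third call in the dark was hH2A on day -2, with 531, 591 and 1161 CPM in ∆ve-1 libraries, against 2130.1, 1547 and 1424 CPM in wild-type libraries, and a log2 fold change of -1.16 ± 0.23 (SE, adjusted p = 3.71e-05). The highest of the 3 mutant values came from replicate 3, one of the libraries that stood apart. In a comparison added after the data had been seen, without that library and replicate 1 of day -1, the change of hH2A on day -2 was -1.60 (adjusted p = 2.74e-07, edgeR) and hH2B, at -0.90 with all libraries, became a call as well at -1.39 (adjusted p = 3.50e-07, edgeR). Over the 7 days in the dark, 3 of 49 histone tests were called, none of them higher, against 19.1% of all tests, 8.73% in the lower direction. At an adjusted p alone 18 were lower, against 20.1% of all tests, and 0 higher in the edgeR fit, in which no higher value had an unadjusted p under 0.05 either. Of the 18, 7 passed whichever replicate number was left out. Without replicate 3 of every group the number of calls was 5, and without the 2 libraries that stood apart it was 4. Conidial markers summed to 8797 to 67113 CPM in ∆ve-1 on days -2 to 0 in the dark (up to 32156 CPM without the libraries that stood apart), against 1133 to 23899 CPM in the wild type, and each of the 5 was higher in ∆ve-1 on every dark day. Whether they had a part in the histone values was not tested.

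As a mean over the 7 days, every histone gene other than hH2Az was lower in ∆ve-1 under both conditions. In light the mean log2 fold change was -1.29 ± 0.069 for hH1, -0.91 ± 0.081 for hH2B, -0.85 ± 0.087 for hH2A and -0.64 ± 0.06 for hH4-2 (SE). It was -0.46 ± 0.055 for hH4-1 and -0.25 ± 0.055 for hH3 (SE), with an edgeR adjusted p of 3.85e-05 for hH3, the largest of the 6. In the dark the order changed at the top, with -0.61 ± 0.087 for hH2A, -0.58 ± 0.08 for hH2B, -0.49 ± 0.068 for hH1, -0.31 ± 0.06 for hH4-2, -0.24 ± 0.055 for hH4-1 and -0.13 ± 0.055 for hH3 (SE). The value of hH3 in the dark, at an adjusted p of 0.0257 (edgeR), did not pass without replicate 1 or without replicate 2 of every group (0.118 and 0.116). hH2Az had -0.016 ± 0.03 in light and -0.025 ± 0.03 in the dark (SE), neither past the threshold. These 12 of 14 means compare with 76% of all tests past the adjusted p and 38.2% of all tests past it and lower.

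Whether light changed the effect of the deletion was tested as the difference of both effects. For hH1 the mean effect in light minus that in the dark was -0.80 ± 0.10 (SE, adjusted p = 4.16e-10) on the log2 scale, edgeR. This difference was -0.33 ± 0.11 (SE, adjusted p = 0.014) for hH2B, -0.33 ± 0.085 (SE, adjusted p = 0.00122) for hH4-2 and -0.22 ± 0.078 (SE, adjusted p = 0.0186) for hH4-1. It did not pass for hH2A (-0.24 ± 0.12 SE, adjusted p = 0.113), hH3 (-0.12 ± 0.078 SE, adjusted p = 0.223) or hH2Az (0.0094 ± 0.043 SE, adjusted p = 0.917). These 4 of 7, all lower, stand against 44.3% of all genes, 26.9% lower. The count was smaller when a replicate number was left out, which also leaves fewer libraries per group. It was 2 without replicate 1 of every group, 2 without replicate 2 and 1 without replicate 3, and hH1 was the gene that passed each time. hH4-1 and hH2B never passed in these fits. Their values were -0.21 and -0.33 without replicate 1, -0.22 and -0.37 without replicate 2, and -0.13 and -0.19 without replicate 3. By day, the difference passed for all members but hH2Az on day 0, where it ranged from -0.61 for hH3 to -1.10 for hH2B, and for hH1 also on days -2, 1 and 2. For hH1 the difference on day 1 passed whichever replicate number was left out. On day 2 it was -0.69 (adjusted p = 0.277, edgeR) without replicate 2. On day -2 it was -0.48 (adjusted p = 0.46, edgeR) without replicate 3, and it did not pass without replicate 2 either. In all, the difference passed in 9 of 49 tests, all lower, against 17.6% of all tests, 12.1% lower. Without replicate 1 of every group none of the 6 differences on day 0 passed, with values from -0.71 for hH4-2 to -0.45 for hH3 and adjusted p from 0.174 to 0.575 (edgeR).

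Light was also set against the dark within each strain. In ∆ve-1 it went with less hH1 mRNA. On day 1 hH1 had 587, 474 and 521 CPM in light, against 1218, 1068 and 1153 CPM in the dark, and on day 6 319.7, 243 and 356 CPM in light, against 504, 621 and 763 CPM in the dark, with no overlap on either day. The log2 fold changes of light over dark were -1.12 ± 0.18 (SE, adjusted p = 1.47e-06) and -1.04 ± 0.18 (SE, adjusted p = 3.27e-06), edgeR. These were the 2 calls among 49 tests in ∆ve-1, where 14.6% of all tests were called, 10.1% in the lower direction. Without replicate 1 of every group the number of calls was 4, with hH1 on day 2 and hH2A on day 6 added, and without replicate 2 it was 1, because hH1 on day 6 was then at -0.91. At an adjusted p alone 14 of 49 were lower and 0 higher in ∆ve-1, of which hH1 gave 6, against 19.2% of all tests lower. Of the 14, 5 passed whichever replicate number was left out, and all 5 were of hH1 or hH2A. The value of hH1 on day 0 was -0.26 (adjusted p = 0.597, edgeR) without replicate 1, against -0.60 with it, and on day -2 it was -0.31 without replicate 3. hH4-2, hH2A and hH2B on day 1 did not pass whichever replicate number was left out. Without the libraries that stood apart, hH1 on day -2 did not pass (-0.44, adjusted p = 0.105, edgeR, against -0.57 with them), while hH4-1 was higher in light on days -2 and -1, at 0.51 and 0.36 (adjusted p = 0.0128 and 0.0489, edgeR).

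In the wild type, light went with more histone mRNA on day 0. hH2A had 1746, 1300.0 and 1462 CPM in light on that day, against 890.3, 741 and 889 CPM in the dark, and hH4-1 had 1325, 1020.3 and 1254 CPM in light, against 730.0, 749 and 752 CPM in the dark. Neither gene overlapped between conditions. All members but hH2Az passed the adjusted p, with log2 fold changes from 0.44 for hH1 to 0.84 for hH2A. hH4-1 and hH2B passed whichever replicate number was left out, hH1 did not pass whichever was left out, hH3 and hH2A not without replicate 1, and hH4-2 not without replicate 1 or 3. None reached the fold for a call, so that 0 of 49 tests were called by edgeR over the 7 days, against 10.2% of all tests. At an unadjusted p of 0.05 edgeR gave 18 of 49. At an adjusted p alone 8 were higher and 1 lower, where 12.9% of all tests were higher and 10.4% lower, and DESeq2 called 0. The lower one was hH2A on day 4, at -0.62 ± 0.23 (SE, adjusted p = 0.0497), which did not pass whichever replicate number was left out. On days 1 and 2 after fertilization the changes with light in the wild type lay between 0.0044 and 0.22, and no member passed.

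The first day after fertilization brought a rise of histone mRNA in the dark. In the wild type hH2A had 2332, 1855 and 1762 CPM on day 1, against 890.3, 741 and 889 CPM on day 0, with no overlap. hH4-2 had 1910.0, 1491 and 1444 CPM on day 1 and 749, 809 and 660.0 CPM on day 0. The log2 fold changes of day 1 over day 0 were 1.24 ± 0.23 (SE, adjusted p = 2.51e-05) for hH2A, 1.19 for hH2B and 1.13 ± 0.16 (SE, adjusted p = 1.11e-07) for hH4-2, all called by edgeR, and the other 4 members rose at an adjusted p under 0.05 by 0.36 to 0.88. Of all genes 13.2% were called over this step, and the share past the adjusted p alone is not given here. The rise of hH1, 0.48 ± 0.18 (SE), did not pass when any 1 replicate number was left out.

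In ∆ve-1 in the dark, 6 members rose over this step at an adjusted p under 0.05 and none was called, where 11.1% of all genes were (edgeR). hH2A, with 1137, 1129 and 1070.2 CPM on day 1 against 755, 515 and 574 CPM on day 0, had the largest change, 0.86 ± 0.23 (SE, adjusted p = 0.00391), and hH2Az, at 0.056 ± 0.08 (SE), did not pass. Of these 6, only hH4-1 passed whichever replicate number was left out. In light, 3 members passed in the wild type, none called, led by hH4-2 at 0.64 ± 0.16 (SE, adjusted p = 0.000736, edgeR). Only hH4-2 passed whichever replicate number was left out, while 21.9% of all genes were called. The 11.1% and 21.9% are shares of calls. Shares of all genes past the adjusted p alone are not given for these steps, so the counts of members that passed have no background beside them. In ∆ve-1 in light 0 of 7 passed in edgeR and 0 of 7 in DESeq2, with 3 of 7 at an unadjusted p under 0.05 in edgeR, where 2.73% of all genes were called and 6.1% passed the adjusted p. hH2B had 995, 791 and 869.9 CPM on day 1 and 608, 746 and 786 CPM on day 0 in ∆ve-1 in light. These did not overlap, with a log2 fold change of 0.31 ± 0.21 (SE, adjusted p = 0.405). Whether the step itself differed between strains was not tested.

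By day 6 the mRNA of hH2A, hH2B and hH1 had fallen in the wild type in light and in the dark, and that of hH4-1 and hH3 in light. On day 6 in light hH2A had 332, 258 and 234 CPM, against 1746, 1300.0 and 1462 CPM on day 0, a log2 fold change of -2.45 ± 0.24 (SE, adjusted p = 1.82e-13). hH2B had 487, 405 and 399.7 CPM on day 6 and 2247, 1638 and 2031 CPM on day 0, a change of -2.20 ± 0.22 (SE, adjusted p = 4.82e-13). The linker gene hH1, at -1.62, and hH4-1, at -1.08, were called as well, hH3 passed the adjusted p alone at -0.76 ± 0.15 (SE, adjusted p = 8.3e-06), and hH4-2 and hH2Az, at -0.27 and -0.087, did not. In ∆ve-1 in light the only call was hH2A, with 356, 219 and 296 CPM on day 6 against 532, 653 and 614 CPM on day 0, at -1.05 ± 0.23 (SE, adjusted p = 0.000224), and it was at -0.81 without replicate 2. hH2B and hH1 were lower there on the adjusted p alone, at -0.72 and -0.67 (adjusted p = 0.00493 and 0.00229, edgeR). Neither passed without replicate 2. In the dark no member was called in either strain, and in the wild type hH2A, hH2B and hH1 were lower at an adjusted p under 0.05, with changes of -0.98, -0.89 and -0.78. hH4-2 had a positive value there that did not pass, 0.32 ± 0.16 (SE, adjusted p = 0.0819), with 1018, 805 and 938 CPM on day 6 against 749, 809 and 660.0 CPM on day 0. hH3 (-0.12), hH4-1 (-0.16) and hH2Az (-0.0092) did not pass either. In ∆ve-1 in the dark only hH2Az passed, at -0.23 (adjusted p = 0.0151, edgeR), and it did not pass whichever replicate number was left out. The 5 calls of 28 tests of day 6 against day 0, all lower, compare with 25.7% of all tests, 8.54% lower.

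Between neighbouring days the called falls in light lay in 2 steps. From day 2 to day 4 in the wild type in light, hH2A changed by -1.13 and hH2B by -1.17, and from day 4 to day 6 hH2A changed by -1.18, all called by edgeR. In the dark the call was hH2A from day 4 to day 6, at -1.16. Together with the 3 rises after fertilization these made 7 of 168 tests, where 4.83% of all tests were called. At an adjusted p alone (edgeR), all 7 members were lower from day 2 to day 4 in wild-type light, by -1.17 to -0.30. So were hH1, hH4-1 and hH2B from day 4 to day 6, at -0.62, -0.60 and -0.82, and hH2B from day 1 to day 2, at -0.62. Of these, only hH1, hH2A, hH2B and hH4-2 from day 2 to day 4 passed whichever replicate number was left out. The called falls of hH2A from day 4 to day 6, in light and in the dark, did so too. In the dark, 5 members were lower in the wild type from day 4 to day 6 at an adjusted p under 0.05 (edgeR), and 3 from day 1 to day 2. In ∆ve-1 in the dark 2 were lower from day 1 to day 2. The share of all genes past the adjusted p alone is not given for these steps. Perithecial markers summed to 9124 to 31159 CPM in wild-type light cultures on days 4 and 6, against 392 to 1561 CPM on days -2 to 0. From day 4 to day 6 the means of per-1 and app fell there, from 6963 to 2865 CPM and from 20571 to 6523 CPM. The mean of spo11 rose from 32.9 to 132 CPM, and that of asd-1 was 22.2 CPM on day 0, 21.6 on day 4 and 23.5 on day 6. The part of these markers in the fall of histone mRNA was not tested.

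**Figure D3:**
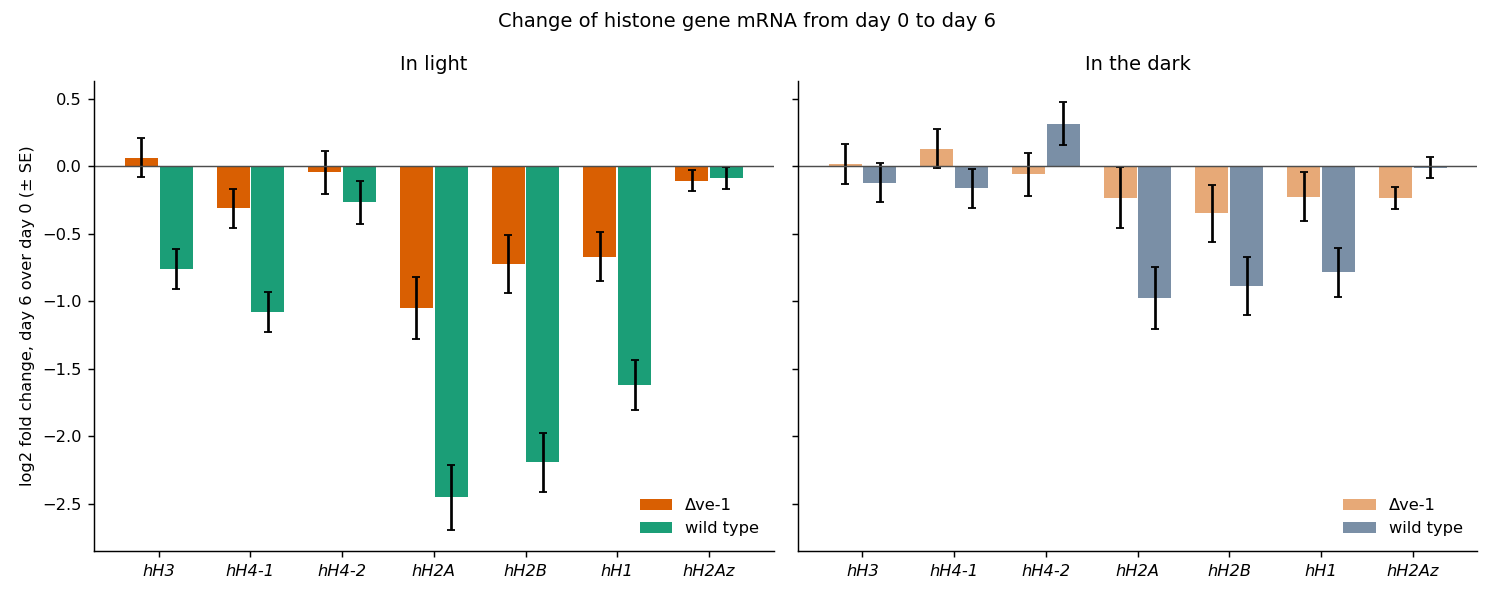
Log2 fold change of day 6 over day 0 for each histone gene (bars, with SE), ∆ve-1 beside the wild type, in light and in the dark. In light the wild-type bars of hH2A, hH2B and hH1 reach -2.45, -2.20 and -1.62, and those of ∆ve-1 reach -1.05, -0.72 and -0.67.

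The strains differed in this change from day 0 to day 6 in light. The change in ∆ve-1 was less negative than that in the wild type by 1.47 ± 0.30 (SE, adjusted p = 6.33e-05) for hH2B, 1.40 ± 0.32 (SE, adjusted p = 0.000342) for hH2A, 0.95 ± 0.26 (SE, adjusted p = 0.00198) for hH1, 0.82 ± 0.21 (SE, adjusted p = 0.000914) for hH3 and 0.77 ± 0.21 (SE, adjusted p = 0.00209) for hH4-1 on the log2 scale, edgeR. hH4-2 (0.22) and hH2Az (-0.018) did not pass. In the dark 0 of 7 passed the adjusted p and 2 of 7 the unadjusted p (edgeR), with values from -0.37 to 0.75. These 5 of 14 tests, all higher, stand against 33.1% of all tests, 14.8% higher. Without replicate 1 of every group the number was 3. In light hH2A and hH2B passed, while hH3, hH4-1 and hH1 had an adjusted p of 0.0729, 0.114 and 0.066 (edgeR), and in the dark hH1 passed at 1.03 (adjusted p = 0.0212, edgeR).

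The proportions between the histone genes shifted with strain, light and day. They are ratios of counts, not corrected for length, and are given as a description without a test. hH1 had 23.2 ± 1.29 counts per 100 counts of hH3 in ∆ve-1 in light on day 1, against 47.4 ± 3.76 in the wild type (SD, n = 3 each), and 27.1 ± 1.34 in ∆ve-1, against 63.9 ± 3.59 for the wild type, on day -2. On each of the 7 days in light the ∆ve-1 mean was below that of the wild type. hH2A had 32.0 ± 1.03 counts per 100 of hH3 in ∆ve-1 in light on day 1 and 58.2 ± 6.34 in the wild type, and by day 6 these had come to 14.8 ± 2.52 in ∆ve-1 and 17.2 ± 2.08 in the wild type (SD, n = 3 each). Ratios within the pairs that lie close together varied less. hH4-1 stayed between 29.3 ± 1.40 and 47.2 ± 3.43 counts per 100 of hH3, and hH2B between 112 ± 11.0 and 158 ± 11.9 counts per 100 of hH2A.

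The H2A.Z gene gave a growing share of the counts for H2A-type histones as hH2A fell. Of the counts of hH2A and hH2Az together, hH2Az made up 25.0% ± 1.73 in ∆ve-1 in light on day 1, against 12.6% ± 1.72 in wild-type cultures. On day 6 it made up 44.3% ± 4.87 in ∆ve-1, against 45.5% ± 3.83 for the wild type (SD, n = 3 each). The share was lowest in wild-type dark cultures on day -2, at 11.8% ± 1.65 (SD, n = 3). Of the H4 counts, hH4-2 made up 42.2% ± 2.51 in ∆ve-1 in light on day -2, the lowest group, and 60.6% ± 1.13 in wild-type light cultures on day 6, the highest. On day 6 the share was 52.4% ± 1.69 in ∆ve-1 in light and 49.3% ± 2.33 in ∆ve-1 in the dark, against 58.0% ± 3.04 in the wild type in the dark. The caution on reads shared by both H4 genes holds for these values.

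**Figure D4:**
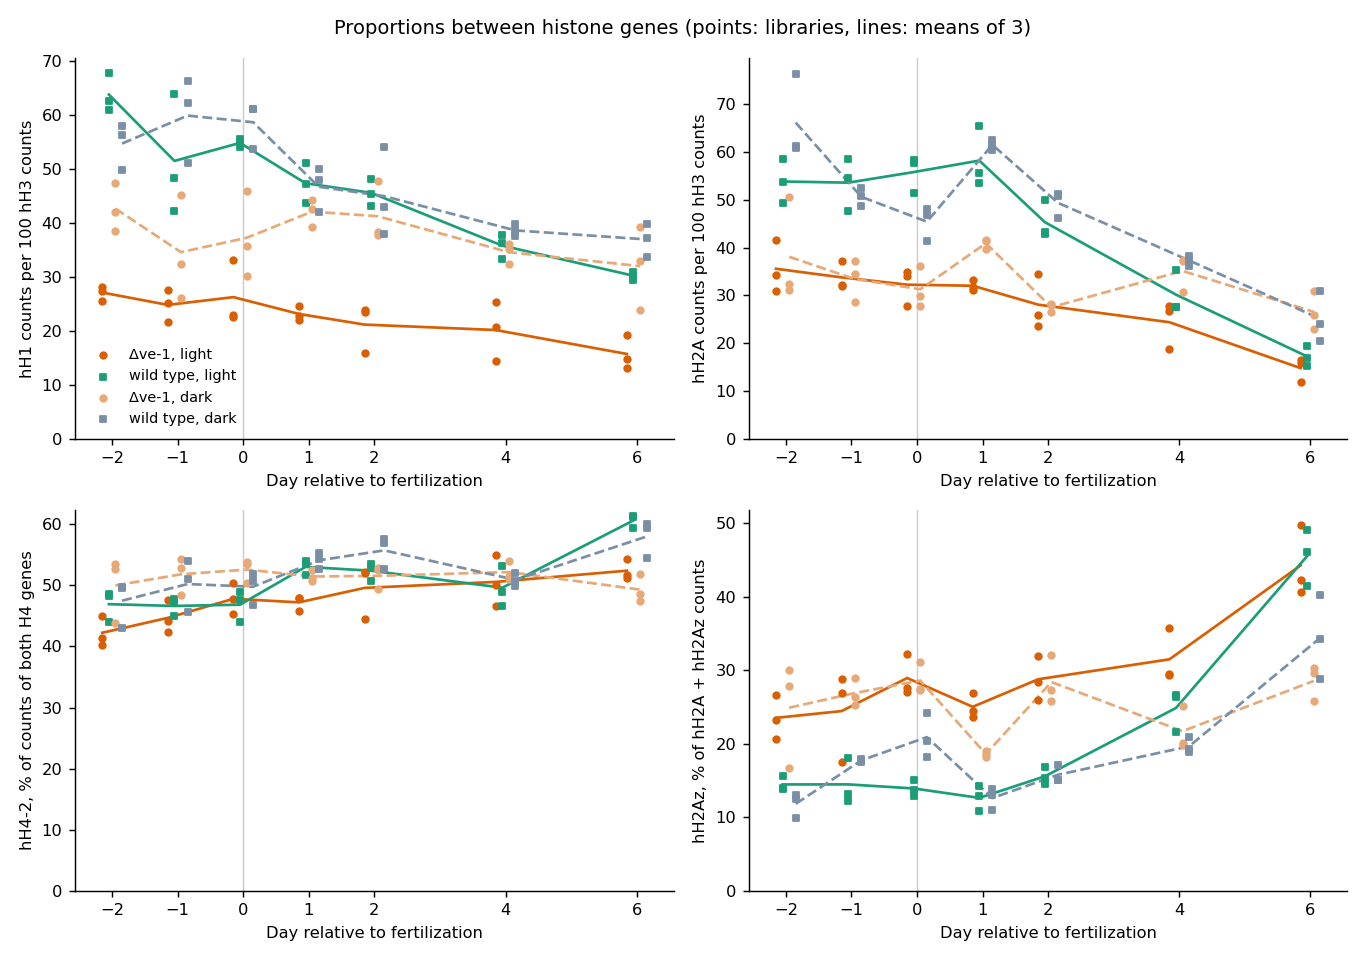
Counts of hH1 and of hH2A per 100 counts of hH3, the share of hH4-2 in the counts of both H4 genes and the share of hH2Az in the counts of hH2A and hH2Az, against the day relative to fertilization (points are libraries, lines are means of 3). The hH2Az share ended at 44.3% in ∆ve-1 light and 45.5% in wild-type light on day 6.

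The annotation holds 2 further histone genes whose symbols mark them as variants, hH3v (NCU00145, chromosome III, 2783014 to 2784705) and hH4v (NCU04338, chromosome IV, 3729161 to 3731640), which are no members of the set of 7. Their levels were far lower, between 20.2 and 73.7 CPM for hH3v and between 32.0 and 97.6 CPM for hH4v over all libraries. hH3v responded to light in the wild type before fertilization. On day 0 it had 73.7, 52.3 and 67.4 CPM in light, against 30.4, 25.8 and 27.1 CPM in the dark, a log2 fold change of 1.22 ± 0.15 (SE, adjusted p = 1.09e-09), edgeR. In ∆ve-1 it had 48.9, 48.1 and 41.5 CPM in light and 52.6, 38.0 and 35.0 CPM in the dark on that day, a change of 0.14 ± 0.14 (SE). Over the 7 days, the mean change of hH3v in ∆ve-1 dark cultures was positive, 0.36 ± 0.055 (SE, adjusted p = 3.67e-08) (0.34 without the libraries that stood apart), and in light it did not pass (-0.0094 ± 0.054, SE). The mean in light joined changes in both directions. They were -0.64, -0.50 and -0.48 on days -2, -1 and 0, and 0.47, 0.72 and 0.33 on days 2, 4 and 6. All 6 passed the adjusted p (edgeR), those of days -2 and 4 whichever replicate number was left out. hH4v was above the wild type under both conditions as a mean over the 7 days, but not on every day. With light, its mean change was 0.22 ± 0.052 (SE, adjusted p = 0.000144), and without light 0.12 ± 0.052 (SE, adjusted p = 0.0359), the second not past the threshold without replicate 1 or without replicate 2. By day, hH4v passed the adjusted p (edgeR) only on days 2, 4 and 6 in light, at 0.39, 0.66 and 0.64. In the dark it passed only on days 4 and 6, at 0.42 and 0.33. The value of day 6 in the dark did not pass whichever replicate number was left out.

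Genes of DNA replication were read out beside the histone genes. The list held 16 genes, among them those for replication licensing factors, DNA polymerase subunits and ribonucleotide reductase. Their identifiers came from the study's tables of genes regulated in these samples. Neither their direction nor how many of them passed is therefore independent evidence. The shares of all genes given beside them come from genes not selected in this way. In light, 10, 10 and 6 of 16 were called lower in ∆ve-1 on days -2, -1 and 0, with medians of -1.06, -1.06 and -0.85, while 10.2%, 10.3% and 10.4% of all genes were called lower and their medians were at 0. On days 1 and 2 in light, when the median histone change was at its lowest, 9 and 5 of 16 were lower at an adjusted p under 0.05 (edgeR), each by less than the fold for a call, and their medians were -0.48 and -0.26. On days 4 and 6 in light the medians were positive, at 0.075 and 0.16, with 4 and 5 of 16 higher and 2 of 16 lower at an adjusted p under 0.05 on each day, and 2 of 16 were called higher on day 6. Over all genes and the 7 days in light, 30% of tests were lower and 28.7% higher at an adjusted p alone. The count of day 2 was thus near that background. In the dark, 9 of 16 were called lower on day 2, against 10.2% of all genes. On day 1 in the dark 13 of 16 were lower at an adjusted p under 0.05 (edgeR), 1 of them called, with a median of -0.66. Over the 7 days in the dark 20.1% of all tests were lower at that threshold. In the wild type on day 0, 10 of 16 were called higher in light than in the dark and all 16 passed the adjusted p, where 8.22% of all genes were called higher. At an adjusted p alone, 12.9% of all tests of light against dark in the wild type were higher over the 7 days. From day 0 to day 6 in the wild type in light, 14 of 16 were called lower, with a median of -1.83, where 38.2% of all genes were called and 13.1% called lower.

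As a mean over the 7 days in light, 15 of 16 replication genes were lower in ∆ve-1, where 40.7% of all genes, not selected for regulation, were. The 2 largest falls were in rpa-1, a replication factor A subunit, at -0.87 ± 0.067 (SE, adjusted p = 3.21e-18), and NCU08009, a replication licensing factor, at -0.83 ± 0.093 (SE, adjusted p = 3.82e-12), edgeR. None passed in the other direction as a mean. Among 4 histone chaperone genes, named by the study in the same way and with the same caution, cac-1, for a subunit of the chromatin assembly factor, was lower at -0.79 ± 0.073 (SE, adjusted p = 3.53e-15), and naf-1, for a nucleosome assembly factor, was lower at -0.42 ± 0.046 (SE, adjusted p = 1.09e-12). A further gene of the list, naf-2, was higher, at 1.29 ± 0.10 (SE, adjusted p = 1.54e-18), and was called higher in ∆ve-1 on 6 of the 7 days in light.

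**Figure D5:**
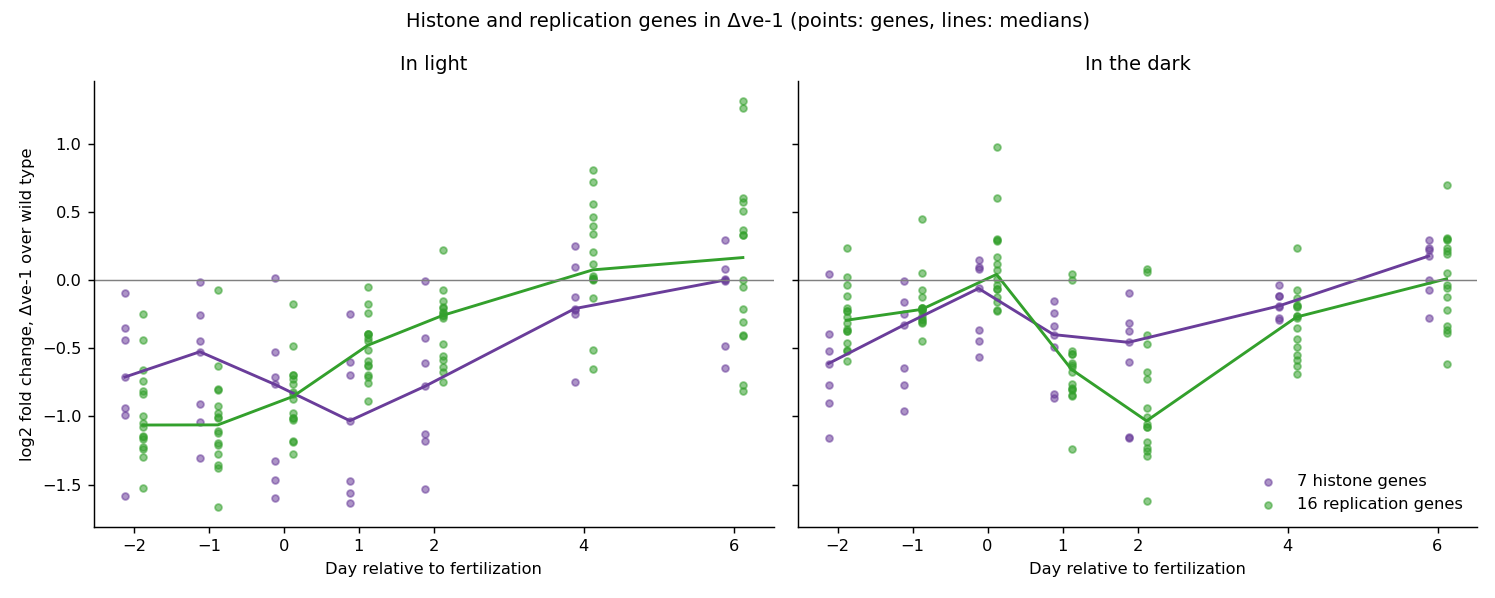
Log2 fold change of ∆ve-1 over the wild type for the 7 histone genes and the 16 replication genes on each day, in light and in the dark (points are genes, lines are medians). In light the replication median was lowest on days -2 and -1, at -1.06, and the histone median on day 1, at -1.03.

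Other genes followed some members closely over the 28 groups. By Pearson's r over the 28 group means of log2 CPM, the genes most like hH3 were wsc (NCU07842), NCU09995 and NCU05280, at 0.920, 0.897 and 0.895. Those most like hH4-2 were NCU10836, NCU00222 and NCU08550, at 0.928, 0.921 and 0.920. For hH2Az the closest were NCU09659, NCU08362 and NCU03625, at 0.788, 0.782 and 0.773. These are descriptions of 28 points that share strains, days and scaling, and no p is attached to them.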

How the data were processed

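RNA was sequenced from 84 libraries, 3 for each combination of strain, light condition and day. The deposited values are raw read counts per gene. Per the study's methods, the authors checked reads with FastQC, cleaned them with fastp, mapped them with STAR (version 2.7 in the submitters' processing notes) to the NC12 genome and counted read pairs per gene with featureCounts, taking strand into account, so reads of antisense transcripts were kept apart while reads shared by near-identical genes may have been split or lost. The deposited table held 0 columns that belonged to no sample.

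Counts were analysed with edgeR 4.0.16 in R 4.3.3 (limma 3.58.1, figures with matplotlib 3.10.9). Genes were filtered with filterByExpr over the 28 groups and libraries scaled with TMM. The quasi-likelihood F test was fitted to all 84 libraries with 1 mean per group, comparisons were contrasts of these means, and p-values were Benjamini-Hochberg adjusted over the 9701 genes left. Between 2 groups, a call needed both a log2 fold change beyond 1 in either direction and an adjusted p below 0.05. Means over the 7 days and differences of effects were called on the adjusted p alone. Ratios between genes came from counts and have no test.

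Alternatives were the scaling (RLE, library totals), DESeq2 1.42.0, no filter, the replicate number as a block, each replicate number left out in turn and the fold criterion. Libraries that stood apart were left out in an alternative chosen after seeing the data. Named were all members, 2 variant genes, ve-1, up to 2 rising and 2 falling genes of each further list with the largest called mean change in light, and the 3 genes most like each of hH3, hH4-2 and hH2Az. Members and lists were chosen with earlier results of these data known. The reference table (RefSeq, NC12) holds no product names, so the replication and chaperone lists were taken by product name from the study's tables of regulated genes, by identifier only.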

Additional observations from a re-analysis of the deposited data

Results flagged for a closer look

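The effect of the ve-1 deletion differed between light and dark for hH1 and, less firmly, for hH2B, hH4-2 and hH4-1. In the edgeR fit, as a mean over the 7 days, the effect in light minus that in the dark (log2) was -0.80 for hH1 (adjusted p = 4.16e-10), -0.33 for hH2B (adjusted p = 0.014), -0.33 for hH4-2 (adjusted p = 0.00122) and -0.22 for hH4-1 (adjusted p = 0.0186), and it was -0.37 for the variant gene hH3v (adjusted p = 6.96e-05). Of all genes 44.3% passed in this test, 26.9% lower. hH2B and hH4-1 did not pass whichever replicate number was left out, and hH4-2 not without replicate 3. hH1 and hH3v passed each time. By day, hH1 had differences of -0.82 on day -2, -1.23 on day 1 and -1.08 on day 2. The value of day 2 was -0.69 (adjusted p = 0.277, edgeR) without replicate 2, and that of day -2 was -0.48 (adjusted p = 0.46, edgeR) without replicate 3. Without the libraries that stood apart, the value of hH1 on day -2 was -0.69 (adjusted p = 0.081, edgeR).

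On day 0 the difference passed for hH3 at -0.61, hH4-1 at -0.70, hH4-2 at -0.81, hH2A at -0.87, hH2B at -1.10 and hH1 at -1.04, and none of these passed without replicate 1 of every group. hH3v differed on day -2 by -1.05, on day -1 by -0.88 and on day 0 by -1.07. Without the libraries that stood apart the values of day -2 and day -1 were -0.85 and -0.91 (adjusted p = 0.00405 and 0.000996, edgeR). The value of day -2 did not pass without replicate 3, that of day -1 not without replicate 2 and that of day 0 not without replicate 1. In light, the changes of hH3v in ∆ve-1 were -0.64, -0.50 and -0.48 on these days, of which day -1 did not pass without replicate 1 or 2 and day 0 not without replicate 1 or 3. In the dark they were 0.41, 0.38 and 0.59. That of day -1 did not pass whichever replicate number was left out (0.27 to 0.48), that of day 0 not without replicate 1, and that of day -2 not without replicate 2 or 3. The last was 0.20 (adjusted p = 0.277, edgeR) without the library that stood apart.

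The change from day 0 to day 6 in light differed between the strains, as ∆ve-1 minus wild type, by 0.82 for hH3, 0.77 for hH4-1, 1.40 for hH2A, 1.47 for hH2B, 0.95 for hH1, 0.81 for hH3v and 0.66 for hH4v. The day-0 libraries enter both these values and the day-0 differences above.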

How the results depend on the processing

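Of 5508 gene values recomputed under other settings, 5151 kept their side of the threshold, 235 no longer passed it and 122 newly passed it. Of values that passed in either fit, 0 changed direction. Values that passed in neither fit were counted among the 5151 even where their direction changed. Without the fold criterion the calls were 18 in the dark and 34 in light for ∆ve-1 against the wild type, 14 for light against dark in ∆ve-1, 9 in the wild type, 12 for day 6 against day 0 and 38 for neighbouring days. With an absolute log2 change above 1 required, the calls were 1 for the 7-day means, 0 for the mean difference between light and dark and 2 for the strain difference in the change over time. Leaving out each replicate number in turn gave 2 to 5 calls in the dark, 12 to 14 in light, 1 to 4 for light against dark in ∆ve-1, 0 to 0 in the wild type, 4 to 6 for day 6 against day 0, 7 to 9 for neighbouring days, 11 to 12 for the means, 1 to 2 for the mean difference between light and dark and 3 to 5 for the strain difference over time. Library totals in place of TMM gave 16 calls in light and 7 for day 6 against day 0, but moved the median of all genes, to -0.13 in the 7-day mean in light (-0.06 with TMM) and to -0.22 for day 6 over day 0 in ∆ve-1 in light (0 with TMM). hH2Az stayed within 0.11 of 0 in both 7-day means, which passed in light with library totals only and in the dark with RLE scaling and DESeq2 only.

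Replicate numbers are shared by the groups, but nothing in the labels pairs the libraries. Same-numbered libraries deviated from their group means with a median correlation of 0.06 (other numbers -0.03, 1134 pairs). With the replicate number as a block the counts of calls were 3 in the dark, 13 in light, 2 and 0 for light against dark, 5 for day 6 against day 0, 7 for neighbouring days, 12 for the means, 4 for their difference and 5 for the strain difference over time, each as without the block. The share of hH4-2 per transcript length was not run, since the reference used gives gene spans only.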
